A study of Mus musculus with 8 samples.

Results

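Peaks of RBM45 iCLIP signal in the 5' UTRs of mouse mRNAs numbered 3565, of 731580 distinct peaks called in either of the WT CLIP libraries (0.487%). They were chosen by position only: the midpoint of the interval had to lie in a 5' UTR on the peak's strand, and in no coding sequence or 3' UTR, of the GENCODE M21 basic gene set (mm10). WT CLIP replicate 1 held 1938 of them among its 387749 distinct peaks, and WT CLIP replicate 2 held 1639 among 344700. Only 12 intervals were equal in both libraries. The peaks fell on 2659 genes.

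The cells were mHiPPoE-2, a transformed mouse hippocampal neuron line of strain Crl:CFW(SW)-024, here of WT genotype. Both libraries came from cells that carried a lentivirus for mouse RBM45 with FLAG and HA tags, so the protein pulled down with the antibody to HA was the tagged one, and the labels do not say whether the cells were 1 clone. The series holds 8 libraries in 4 groups (CLIP and input, WT and Mettl3 KO), of which the 2 WT CLIP libraries are described here. Its stated aim was to map RBM45 sites with and without m6A, and the KO and input libraries were not used here.

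RBM45 is an RNA-binding protein with several RNA recognition motifs. The 5' UTR is the stretch between the cap and the start codon, which the small ribosomal subunit scans, and where upstream start codons, folded structures and bound proteins can change how much protein is made. N6-methyladenosine (m6A) is placed mostly within the consensus DRACH, in which D is A, G or T, R is A or G and H is A, C or T in DNA letters. GAC is its most common core. In iCLIP, UV light links a protein to the RNA it touches, and sites are read as places where reads from the pull-down pile up.

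The sequences at the strongest reproducible sites are shown to let their GAC content be seen. Each is 30 bases of the transcript, 5′ to 3′ in DNA letters, centred on the midpoint of the replicate 2 peak, with GAC in capitals (GENCODE M21 transcripts, GRCm38, the build named mm10 in the submitters' notes). The 10 peaks of highest rank by the lower of the replicates' −log10 p were:
Cdk11b (chr4:155625346-155625375, plus strand): taagttacccaaaaccttacaggaatGACa
Tor1aip2 (chr1:156051645-156051674, plus strand): aGACtgGACtggtccctgagtacagaGACt
Tor1aip2 (chr1:156051839-156051868, plus strand): ttgttgttacattgctttgtgttgtctttc
Rel (chr11:23770748-23770777, minus strand): tGACtGACtcactGACtGACtGACtggctg
Pcyt1a (chr16:32431321-32431350, plus strand): gGACtGACtgatcgatggatagtGACtgag
Tubb5 (chr17:35838104-35838133, minus strand): ccccaaaaaccttaattttctttcttgttc
Snx19 (chr9:30427501-30427530, plus strand): tcccactcctGACaccaaaataaaatcgga
Mpc1 (chr17:8284527-8284556, plus strand): gctccggctcgtGACcGACcgGACgaacac
Snx33 (chr9:56927804-56927833, minus strand): gGACgGACtGACaaacacccGACtacgcca
Rbbp6 (chr7:122970878-122970907, plus strand): catattttgctcttaagtttataaatatac
The Rel window held GAC 5 times, each preceded by T, and the Snx33 window held it 4 times. The windows at Tubb5, at Rbbp6 and at the second site of Tor1aip2 held none and were low in G and C (33.3%, 20% and 33.3%). Their replicate 2 peaks were wider (82, 38 and 170 bp), and GAC was not sought in the rest. Ranks down to the one that completed the 20 named genes cover 22 overlapping pairs (these genes hold 26 in all). A window could be read in this way for 20 of the 22, and of these 14 held GAC, 6 of them more than 1 time, and 16 held DRACH. Tor1aip2 and Snx33 each gave more than 1 window. Of all 30 nt windows in 5' UTRs of the gene set, 33.1% held GAC and 35.9% DRACH. In the 5' UTRs of overlapping peaks with a −log10 p of at least 6, 47.5% of windows held GAC. The sites were picked by strength and overlap, and no test was made.

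The strongest 5' UTR site in both libraries together lay in Cdk11b, a cyclin-dependent kinase linked to transcription and splicing (chromosome 4, 155625205 to 155625563 in replicate 1, exon 1). Its fold over background, a value of the authors' peak caller as are all folds and −log10 p values here, was 24.0 in replicate 1 and 16.2 in replicate 2, with −log10 p of 52.5 and 31.7. The interval was 359 bp wide in replicate 1, the widest of any 5' UTR peak, and ran from the 5' UTR into the coding sequence, at a place that is also intronic in another transcript of the gene. In replicate 2 it was 357 bp wide, and 335 bp were common to both. Each library had 1 peak in this 5' UTR, at the same place.

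Tor1aip2, which encodes a membrane protein of the endoplasmic reticulum that activates torsin, held the next 2 sites (chromosome 1, 156051595 to 156051737 and 156051759 to 156051897 in replicate 1). The site farther from the start codon had folds of 20.4 in replicate 1 and 12.3 in replicate 2. The site nearer to it had folds of 9.35 and 8.83, and its replicate 1 interval reached into the coding sequence. Both lay in exon 2 of a transcript of 2 exons that is not tagged principal, again at a place that is intronic in another transcript, so that reads of unspliced RNA cannot be told apart from reads of this 5' UTR. Tor1aip2 held 7 peaks in 5' UTRs in all, 3 in replicate 1 and 4 in replicate 2.

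Rel, the NF-kB subunit c-Rel, was the strongest 5' UTR peak of replicate 2, with a fold of 15.2 and a −log10 p of 33.5 against 8.21 and 12.9 in replicate 1 (chromosome 11, 23770719 to 23770815 in replicate 1). This place was exonic in every basic transcript that covers it, 203 nt from the cap and 78 nt from the start codon. Tubb5, a beta tubulin, likewise had its higher value in replicate 2, with folds of 6.38 and 9.0 (chromosome 17, 35838078 to 35838143 in replicate 1). It lay 58 nt before the start codon. The sorting nexin gene Snx19 had folds of 4.68 in replicate 1 and 7.94 in replicate 2 over a 30 bp interval equal in both libraries. The higher value of these 3 genes was thus in replicate 2, and that of Cdk11b and both Tor1aip2 sites in replicate 1.

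Pcyt1a, the rate-limiting enzyme of phosphatidylcholine synthesis, had folds of 7.78 and 6.55 (chromosome 16, 32431104 to 32431384 in replicate 1). The 281 bp interval of replicate 1 had its midpoint 14 nt from the cap and reached upstream of it, and that midpoint is also intronic in another transcript. Mpc1, a subunit of the mitochondrial pyruvate carrier, had folds of 7.68 and 3.84, again in an intron of another transcript. Snx33, a sorting nexin with a 5' UTR of 1588 nt, held 2 overlapping sites, with folds of 4.50 and 4.42 at 560 nt from the cap and 7.20 and 3.73 at 1517 nt, the second being 71 nt before the start codon. At each of these sites of the 3 genes the higher fold was in replicate 1.

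The other 12 of the 20 genes had a −log10 p under 6 in at least 1 replicate. Rbbp6, a ubiquitin ligase that binds the retinoblastoma protein, had folds of 6.16 and 4.65, and Chpf2, which helps to polymerise chondroitin, had 3.86 and 7.84 at its higher-ranked site. Prr3 had 3.65 and 5.30. Kdm4a, a histone demethylase, had 2.90 and 3.64, 28 nt before the start codon in exon 2, and Gpsm2, which orients the mitotic spindle, had 2.88 and 3.83. Pik3r1, a regulatory subunit of PI3 kinase, had 4.59 and 3.39, 27 nt before the start codon of a transcript not tagged principal. Its replicate 1 interval reached into the coding sequence, and its midpoint is also intronic in another transcript. Nacc2, Ip6k2, Arrdc3, Phospho2, Tsen34 and Zmynd8 had folds between 2.82 and 5.34 over both replicates. The replicate 1 midpoints at Prr3, Nacc2, Ip6k2, Phospho2 and Zmynd8 are also intronic in another transcript. The replicate 1 intervals at Kdm4a, Prr3, Ip6k2 and Phospho2 ran past an end of their exon. What sets the replicates apart at single genes was not tested.

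**Figure D1:**
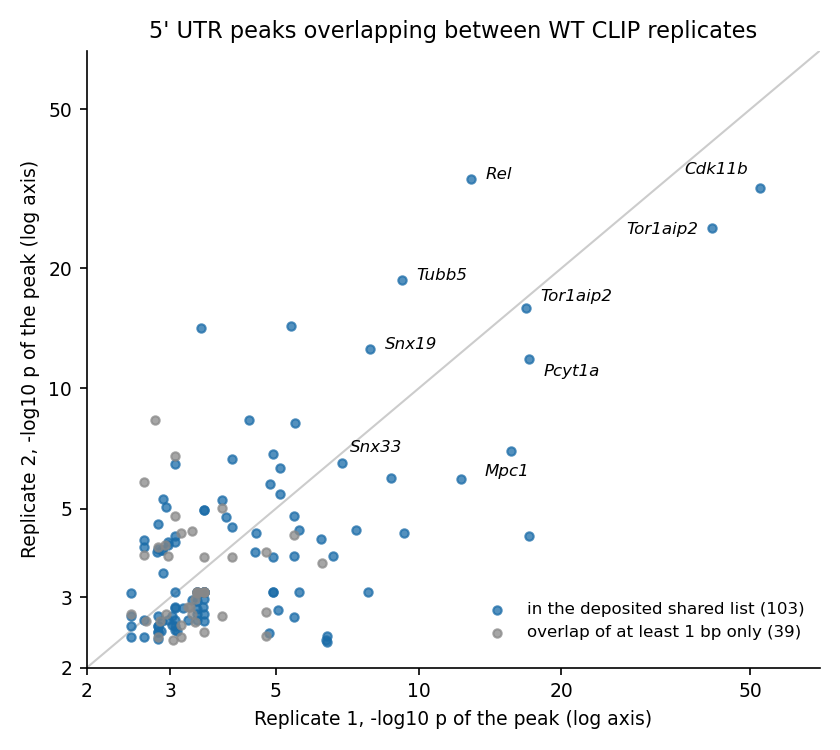
Each point is 1 of 142 pairs of peaks that overlap between the libraries and have at least 1 midpoint in a 5' UTR, at its −log10 p in replicate 1 (x, log axis) and replicate 2 (y, log axis). The grey line marks equal values; pairs in the deposited shared list are blue (103), others grey (39), and Cdk11b, Tor1aip2 and Rel stand apart from the mass of weak pairs.

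Reproducible 5' UTR peaks were few in number and most had a low −log10 p, while the share that overlapped was near that of all peaks. In the plot of the pairs, 142 pairs on 133 genes had an overlap of at least 1 bp on the same strand, and in 124 both midpoints lay in a 5' UTR. The lower −log10 p of a pair had a median of 2.97 and ranged from 2.32 to 31.7. It was at least 4 in 28 pairs (19.7%), at least 6 in 9 and at least 10 in 5. The lower value was not taken for pairs of other regions, so weak pairs cannot be called a trait of 5' UTRs. In the deposited shared list stood 100 of the 1639 replicate 2 peaks (6.10%) and 96 of the 1938 replicate 1 peaks (4.95%), beside 4.76% and 4.13% of peaks of all regions. The 12 intervals equal in both libraries included Gpsm2 and Snx19 with a −log10 p above 4 in both. Others were in Cdca8, Cnr1, Pheta2, Rreb1, Tesk1, Tmem29, Usp40, Zfp526 and Zscan12, with folds of 3.18 or less.

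Strong peaks of a single library were found too. Cygb, which encodes the oxygen-binding protein cytoglobin, held the third strongest 5' UTR peak of replicate 2 (fold 14.3, −log10 p 26.5, chromosome 11, 116653949 to 116653978, 45 nt before the start codon) and no peak of any region in replicate 1. Ddx39b, an RNA helicase of splicing and mRNA export, held the fifth (fold 5.25, −log10 p 24.2, also intronic in another transcript), with 0 peaks in that 5' UTR in replicate 1. All of the 5 strongest of replicate 1, in Cdk11b, Tor1aip2, Pcyt1a and Mpc1, overlapped a replicate 2 peak. The sixth, in Chpf2 (fold 9.10, −log10 p 14.8), did not. At a −log10 p of 10 or more, 7 of 14 replicate 1 peaks and 9 of 12 replicate 2 peaks overlapped the other library. The absence of a peak in a list is not the absence of reads, since the lists hold only what passed the caller's threshold. The lists carry no read numbers, so that the depth is unknown.

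Peaks in 5' UTRs overlapped the other library less often than peaks in 3' UTRs, and no difference from coding sequence or introns passed the threshold. Of replicate 2 5' UTR peaks 132 of 1639 overlapped a replicate 1 peak, or 8.05% (95% Wilson interval 6.83 to 9.47), beside 7.85% of peaks of all regions. Of replicate 1 5' UTR peaks 133 of 1938 overlapped a replicate 2 peak, or 6.86% (5.82 to 8.08), beside 6.94% of all peaks. The share was thus near that of all peaks in both libraries. In 3' UTRs it was 13.4% (12.8 to 14.1) in replicate 2 and 9.91% (9.46 to 10.4) in replicate 1. The odds ratio of 5' UTRs against 3' UTRs was 0.564 in replicate 2 (adjusted p = 8.31e-10) and 0.670 in replicate 1 (adjusted p = 2.93e-05; two-sided Fisher's exact test, Benjamini-Hochberg adjustment over 6 tests). Against coding sequence it was 1.06 in replicate 2 (7.60%, adjusted p = 0.82) and 1.03 in replicate 1 (6.65%, adjusted p = 0.84). Against introns it was 1.05 (7.68%, adjusted p = 0.82) and 1.01 (6.81%, adjusted p = 0.93). The intervals and tests cover counting error over peaks of these 2 libraries, peaks of a gene are not independent, and nothing in the labels says that the libraries came from separate cultures.

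Some rules of counting changed these comparisons. When at least 50% of the peak had to be covered, replicate 2 5' UTR peaks (6.10%) lay above coding sequence by 1.71 percentage points (adjusted p = 0.00872) and above introns by 1.45 (adjusted p = 0.0129), both in Fisher's exact test, but replicate 1 peaks did not pass (adjusted p = 0.358 for each). When 1 peak per gene and region was kept, the difference of 5' UTRs from introns was -5.13 points in replicate 2 (adjusted p = 6.84e-09) and -6.82 in replicate 1 (adjusted p = 1.43e-16). That rule takes the strongest of many peaks in introns and often the only one in a 5' UTR, and the part of this in the difference was not tested. The difference from 3' UTRs held under all 5 alternatives in both libraries.

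**Figure D2:**
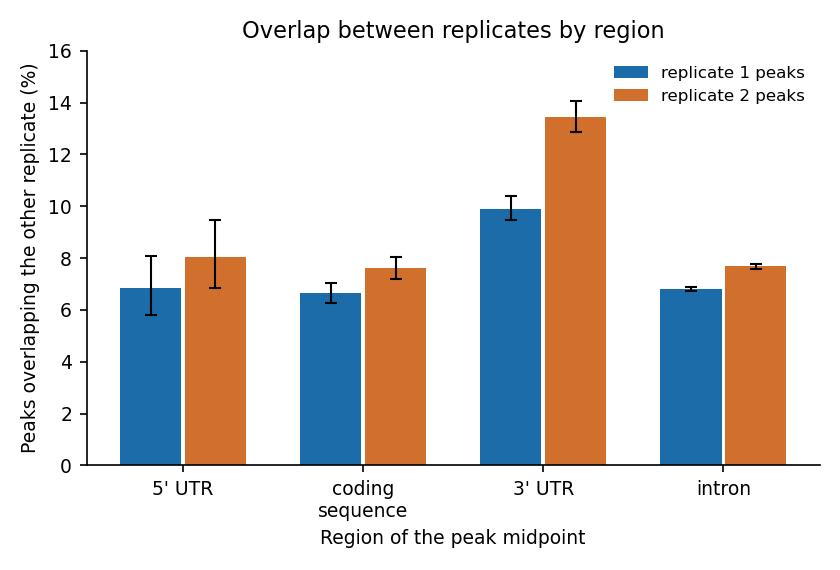
Bars give the percentage of distinct peaks of replicate 1 (blue) and replicate 2 (orange) that overlap a peak of the other replicate by at least 1 bp, by region of the midpoint; error bars are 95% Wilson intervals over peaks. The 3' UTR bars, 9.91% and 13.4%, stand above the 5' UTR bars, 6.86% and 8.05%.

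The regions also differed in the strength and density of their peaks. A −log10 p of at least 4 was reached by 20% of 5' UTR peaks in replicate 1 and 16.8% in replicate 2, against 25.2% and 24.3% in 3' UTRs and 18.6% and 18.3% in coding sequence. Over both libraries there were 0.566 distinct peaks per kb of annotated 5' UTR, 0.889 per kb of coding sequence, 0.861 per kb of 3' UTR and 0.582 per kb of intron. The part of density in the overlap was not tested. At matched strength, in 6 classes of −log10 p in each library, the share overlapping was lower in 5' UTRs than in 3' UTRs in 10 of 12 classes. For example, between 4 and 6 it was 13.4% (9.47 to 18.5, 217 peaks) in 5' UTRs of replicate 2 and 19.1% (17.5 to 20.8, 2234 peaks) in 3' UTRs.

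Within 5' UTRs, as in the other regions, the overlap was highest among the strongest peaks. At a −log10 p of 10 or more, 7 of 14 5' UTR peaks of replicate 1 (50%, 26.8 to 73.2) and 9 of 12 of replicate 2 (75%, 46.8 to 91.1) overlapped. In that class the shares in replicates 1 and 2 were 62.7% and 75% in coding sequence. They were 65% and 65.7% in 3' UTRs, and 70.5% and 80.7% in introns. In 5' UTRs the shares between 6 and 10 were 18.2% (66 peaks) and 21.3% (47 peaks). Between 2.3 and 2.7 they were 2.41% (456 peaks) and 7.51% (493 peaks). Wide peaks overlapped more often too: 19.3% (13.9 to 26.0) of replicate 1 peaks of 50 bp or more, against 5.46% (4.44 to 6.69) of those of 30 bp. In replicate 2 these shares were 16.9% (11.2 to 24.7) and 6.43% (5.23 to 7.87). Peaks of 30 bp, the least width, made up 81.3% of 5' UTR peaks in replicate 1 and 81.6% in replicate 2.

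**Figure D3:**
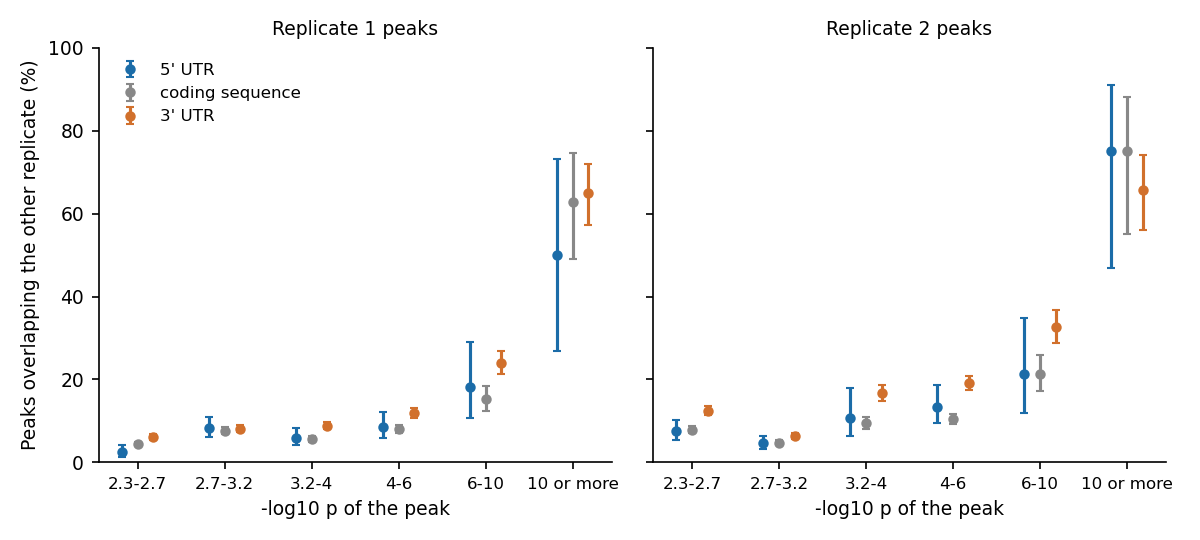
Percentage of peaks that overlap the other replicate (y) by class of −log10 p (x) for 5' UTRs (blue), coding sequence (grey) and 3' UTRs (orange), replicate 1 on the left and replicate 2 on the right, with 95% Wilson intervals. In 5' UTRs the highest class reached 50% in replicate 1 and 75% in replicate 2, with wide intervals for its 14 and 12 peaks.

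Along the 5' UTR the midpoints of the peaks were sparser near the cap and denser near the start codon, an order that their 5' ends did not show. Distances are counted in spliced nt in 1 transcript per peak, the principal one where it holds the midpoint. The median distance was 159 nt from the cap (quartiles 76 and 311, range 0 to 6659) and 128 nt from the start codon (quartiles 51 and 257, range 1 to 7865). Within 50 nt of the cap lay 549 peaks (15.4%, 14.3 to 16.6), whereas 20.7% of the bases of the same 5' UTRs lie that close. Within 50 nt of the start codon lay 884 (24.8%, 23.4 to 26.2), beside the same 20.7% of bases. With each 5' UTR cut into 5 equal stretches from cap to start codon, the share of peaks was 14.4%, 18.1%, 21.3%, 21.9% and 24.3%. The bases were taken with equal weight per peak, no read coverage entered them, and no test was made. They include the first bases after the cap, where a peak of 30 bp or more that starts at or after the cap cannot have its midpoint. No such limit holds at the start codon, where an interval may run on into the coding sequence. How far this lowers the share near the cap was not tested.

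Both libraries showed this order. Close to the cap lay 14.0% of replicate 1 peaks and 17% of replicate 2 peaks, and close to the start codon 24.9% and 24.6%, against 20.4% and 21% of bases. It depended on the point taken to stand for a peak. Counted from the 5' end of the interval in place of its midpoint, 18.1% (16.8 to 19.5) of 3220 peaks lay within 50 nt of the cap. That interval includes the 19.5% of bases that lie so close. Within 50 nt of the start codon lay 16.9%, against the same 19.5% of bases. A peak whose 5' end is close to the start codon often has its midpoint in the coding sequence and is then not counted as a 5' UTR peak. With the shortest 5' UTR that holds the midpoint, 20.3% lay close to the cap and 25.2% close to the start codon, against 23.7% of bases.

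**Figure D4:**
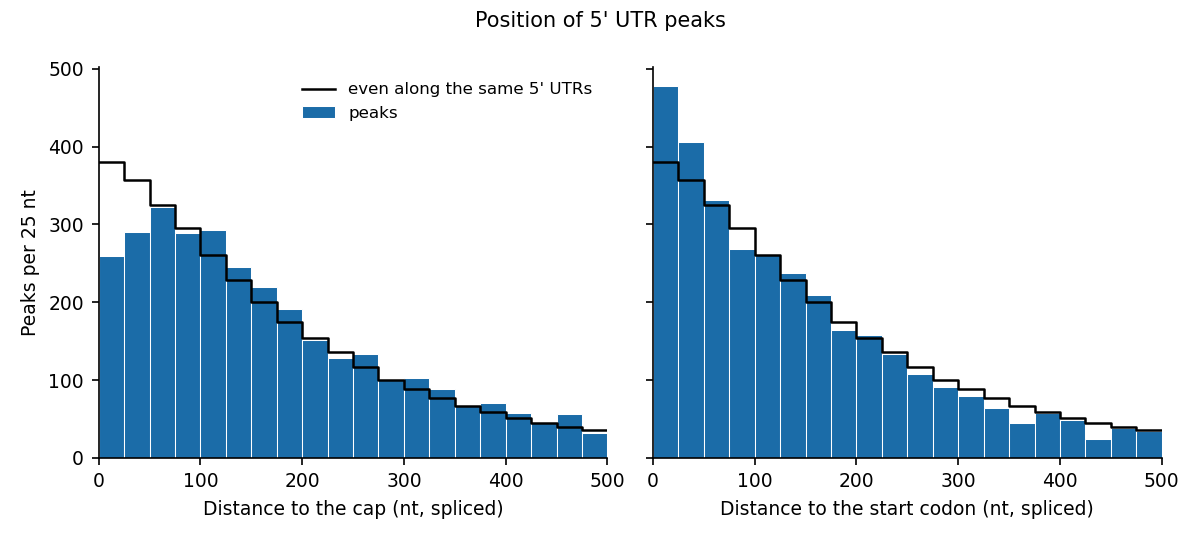
Number of the 3565 5' UTR peaks per 25 nt of spliced distance (bars) to the cap (left) and to the start codon (right), up to 500 nt; the black line is the number if the peaks lay evenly along the same 5' UTRs. The first 25 nt after the cap held 259 peaks against 381 on the line, and the last 25 nt before the start codon held 478 against 381. A peak that starts at or after the cap cannot have its midpoint in the first bases, which the line does not allow for.

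The overlapping pairs lay at much the same distances. Their median was 146 nt from the cap and 116.5 nt from the start codon (142 pairs). Overlap with replicate 2 was seen for 7.72% of replicate 1 peaks within 50 nt of the cap (5.10 to 11.5), 5.6% of those within 50 nt of the start codon (3.88 to 8.03) and 7.26% of those farther from both (5.94 to 8.84). In replicate 2 these shares were 7.55%, 7.67% and 8.28%, so that the intervals overlap in each library. In 239 peaks (6.70%) the interval reached into the coding sequence, in 361 (10.1%) past a splice site and in 159 (4.46%) upstream of the annotated cap.

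A 5' UTR label does not always mean a spliced mRNA. Of the 3565 peaks 3032 (85.0%) lay in a 5' UTR of a principal transcript, and 2713 (76.1%) in exon 1, 668 (18.7%) in exon 2 and 184 (5.16%) in a later exon. The midpoint of 1260 (35.3%) was also in an intron of another basic transcript. The part that unspliced RNA takes in these was not tested. They overlapped between libraries in 7.59% of replicate 1 peaks (5.84 to 9.82) and 9.53% of replicate 2 peaks (7.40 to 12.2), against 6.46% (5.23 to 7.96) and 7.25% (5.84 to 8.97) of the others. For 213 peaks (5.97%) the same interval was deposited on the other strand as well, so that their strand cannot be told.

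Most genes had a single 5' UTR peak. Of the 2659 genes 2053 (77.2%) held 1, 426 (16%) held 2 and 180 (6.77%) held 3 or more. A peak in replicate 1 was found on 1629 genes and in replicate 2 on 1418, and 388 genes had both (23.8% and 27.4%). No such share of genes was taken for other regions, so these shares cannot be called high or low. The most peaks, 9 each, were in Snx33 (4 in replicate 1 and 5 in replicate 2) and in Tmbim1, which has a 5' UTR of 8962 nt (7 and 2, none overlapping). Phospho2 held 8. Chpf2, Tor1aip2, the hnRNP gene Hnrnph2, the vesicle tethering gene Trappc5 and the chromatin reader gene Zmynd8 held 7 each. Hnrnph2 had 4 in replicate 1 and 3 in replicate 2 along 2137 nt, with no overlapping pair. The number of peaks rose with the length of the 5' UTR (Spearman's rank correlation 0.352 across 2659 genes with a peak, which share libraries and are not independent). The 5' UTR had a median length of 332 nt over peaks, against 172 nt over principal transcripts of the gene set. The first median counts a 5' UTR once for each of its peaks and the second counts each transcript once. They are thus not like measures, and a preference for long 5' UTRs was not tested.

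The genes of the tagged protein and of the deleted methyltransferase held none. Rbm45, with a 5' UTR of 145 nt, had 20 peaks in replicate 1 and 10 in replicate 2 in other regions and 0 in the 5' UTR. Mettl3, with 141 nt, had 4 and 3 and likewise 0. Of 21 genes of the m6A machinery with peaks in both libraries, 1 held a 5' UTR peak, the demethylase gene Alkbh5, in replicate 1 only. Over all 13932 coding genes with peaks in both libraries 18.1% held one, and 0.955% held an overlapping one.

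The other gene lists, which are partial, are given as counts beside these shares, with no test, over members with peaks in both libraries. Listed genes with a 5' UTR peak that had peaks in only 1 library (Atf4, Rpl10, Rps23, Btg2 and the endothelium marker Cldn5) are not in these counts. Of genes with long, structured 5' UTRs 7 of 13 held a 5' UTR peak (53.8%), namely Myc, Vegfa, Xiap, Bcl2, Apaf1, Igf1r and Runx1, which had 5. None was an overlapping one. This list is one of long 5' UTRs, and the number of peaks rose with 5' UTR length. Peaks of all regions in replicate 1 ranged from 1 in Myc to 280 in Igf1r among these 7 genes. The part of length and of peak number in the 53.8% was not tested. Of ribosomal protein genes 8 of 26 held one (30.8%), and that of Rpl15, 25 nt before the start codon by the replicate 1 midpoint, overlapped between libraries (folds 1.90 and 2.65). Rps21, a ribosomal protein gene outside the list that was named after its values were seen, held an overlapping pair too (folds 1.92 and 2.87). Of genes known for regulatory upstream reading frames 4 of 13 held one: Atf5, Ppp1r15a, Mdm2 and Slc7a1. Of immediate early genes 6 of 21 did, with 4 peaks in Jun and an overlapping pair in Klf4 (folds 1.85 and 2.63). Of translation factors and other TOP mRNAs 4 of 23 did (17.4%): Eif4g1, with 3 peaks, all in replicate 2, Eif4ebp2, Eif5a and Pabpc1.

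Neuronal genes stood near the share of all genes. Of neuronal differentiation genes 4 of 18 held a 5' UTR peak (22.2%): Sox4, Map2, Elavl2 and Pax6, a transcription factor of neural progenitors, with 6 peaks and an overlapping pair of folds 1.87 and 1.87. Of ALS and FTD genes 2 of 16 did, Tbk1 and Kif5a. Among neuron markers 1 of 8 did, Map2. Among markers with peaks in both libraries, those of other brain cells held a 5' UTR peak in 1 of 4 microglia genes (Tmem119) and in none of 6 astrocyte, 4 oligodendrocyte and 5 endothelium genes. Among all listed markers, a peak of any region in either library was found on 9 of 10 neuron markers, 6 of 7 astrocyte, 5 of 7 oligodendrocyte, 6 of 6 microglia and 7 of 7 endothelium markers, so that the presence of peaks does not set the labelled cell type apart here.

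The peaks were set beside all windows of their own 5' UTRs for base content and motifs. Among 2321 peaks of 30 bp that lay wholly in the 5' UTR, G and C made up 55.2% of bases (SD 13.5 over peaks), against 58.5% of all 30 nt windows of the same 5' UTRs. GAC was held by 33.0% (31.1 to 34.9), against 33.9% of those windows and 33.1% of all 30 nt windows in 5' UTRs of the gene set. GGAC was held by 12.9% (11.6 to 14.3) against 12.8%. DRACH was held by 38.4% (36.4 to 40.4) against 36.2% of windows of the same 5' UTRs and 35.9% of all. GGAC sites are among the GAC sites, and DRACH overlaps both.

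The rarer motifs were TTTTT, in 4.22% (3.48 to 5.12) against 3.10% of windows of the same 5' UTRs and 2.66% of all, and CTCTCT, in 2.15% (1.64 to 2.83) against 1.52% and 1.49%. An upstream start codon, ATG, was in 20.9% (19.2 to 22.6) against 19.6% and 19%. Motifs were sought on the transcript strand only, a match is a description of the letters, and no test was made.

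Strong and weak 5' UTR peaks were set side by side for GAC and for G and C, without a test and with a split by strength chosen after seeing the data. In the 30 nt at the midpoint, GAC was in 58 of 126 peaks with a −log10 p of at least 6 (46.0%, 37.6 to 54.7) and in 1034 of 3017 weaker ones (34.3%, 32.6 to 36). It was there more than 1 time in 14.3% and 6.50%. All windows of the same 5' UTRs held GAC in 37.1% and 34.1%. The windows' share for strong peaks was no longer above 34.1% when 1 strong peak per gene was kept. With 1 peak per gene the share at strong peaks was 41.0% (32 to 50.5) against 34% of windows, and the interval then includes both the windows' share and that of the weak peaks. G and C made up 45.9% of the strong peaks and 54.4% of the weak ones, against 55% and 58.2% of their own windows.

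In the sites of highest strength the share with GAC rested on few genes. At a −log10 p of 10 or more it was 7 of 13 in replicate 1 (53.8%, 29.1 to 76.8) and 8 of 12 in replicate 2 (66.7%, 39.1 to 86.2), beside 46.2% and 45.1% of windows of the same 5' UTRs. Among peaks of at least 6 that overlapped the other library it was 61.8% (45.0 to 76.1, 34 peaks on 22 genes) against 47.5% of windows, and among those that did not it was 40.2% (30.8 to 50.4, 92 peaks) against 33.3%, an interval that includes the 34.3% of the weak peaks. The Rel, Tor1aip2, Pcyt1a, Mpc1 and Snx33 sequences with GAC printed above are among the overlapping ones. Both members of an overlapping pair count here, so that a site found in both libraries enters 2 times.

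**Figure D5:**
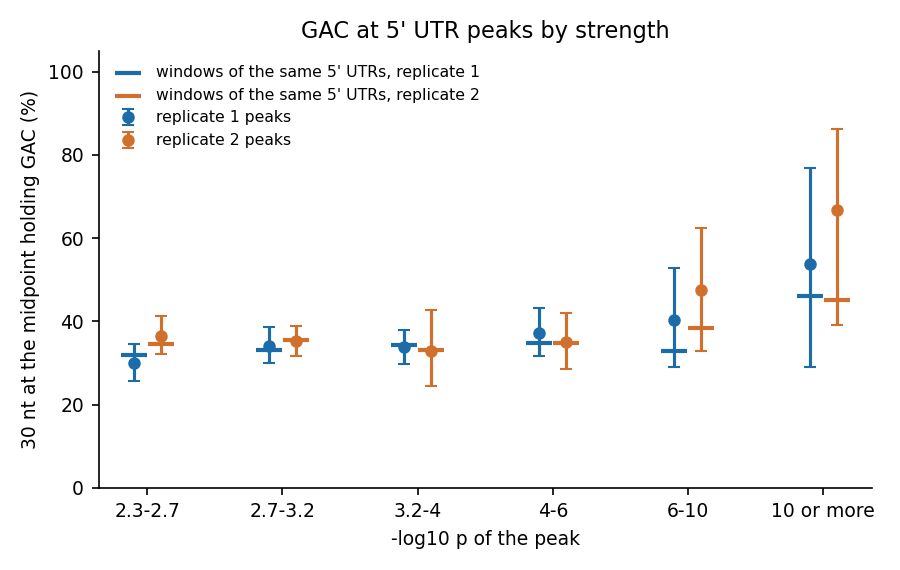
Percentage of 5' UTR peaks with GAC in the 30 nt at the midpoint (points, 95% Wilson intervals) by class of −log10 p, for replicate 1 (blue) and replicate 2 (orange), with the percentage of all 30 nt windows of the same 5' UTRs as short bars. Points lie near the bars up to 6 and above them, with wide intervals, in the classes from 6 to 10 and of 10 or more.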

How the data were processed

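The WT CLIP peak lists were deposited by the authors, 1 per library. MACS2 2.1.1.20160309 is the peak caller among the tools listed, beside Novoalign 3.09.00 and bedtools 2.25.0, per the submitters' processing notes, with mm10. Their settings and the control of the peak calling are not known here. Each deposited peak has the authors' score (10 times the −log10 p, rounded down), a fold (the ratio of pileup over background) and the −log10 p, not adjusted. Repeated lines were removed (654978 and 581790 lines gave 387749 and 344700 peaks). The sources used here do not say how strand was assigned.

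A deposited count table and its summary have 16 library columns, 8 in each, whose names match no sample's labels. They were used in no step, so the planned edgeR comparison was not run.

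Peaks were placed by midpoint on GENCODE M21 basic (GRCm38). The transcript used for a peak was the principal one, then that of the longest coding sequence. Sequence came from the GENCODE transcripts, whose length equalled the sum of exons for 41697 of 41697, with ATG after the 5' UTR in 41625. Peaks of all regions per gene were given to the shortest gene holding the midpoint. Overlap was 1 bp or more on the same strand. Shares have Wilson 95% intervals, and 6 differences were tested by Fisher's exact test with Benjamini-Hochberg adjustment at 0.05. The code was tested on simulated data. Peaks were ranked by the lower of the replicates' −log10 p. Genes named were the first 20 by that rank, the 8 with most 5' UTR peaks, those of the 5 strongest peaks per library, list members with overlapping peaks, Rbm45 and Mettl3; others were named as members of small counts. Distances given for a pair are those of the replicate 1 midpoint where it lies in a 5' UTR. The members and gene lists were chosen with earlier results of these data known. Alternatives were the overlap, strength, width, gene set, transcript, distance and replicate settings reported in the closing section. Tests used scipy 1.17.1, tables pandas 2.3.3 and numpy 2.4.6, and plots matplotlib 3.10.9, under Python 3.11.15.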

Additional observations from a re-analysis of the deposited data

How the results depend on the processing

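No paired analysis was possible because the results come from peak lists of 1 group, with no test over samples. The number of 5' UTR peaks was 2840 with the whole interval in a 5' UTR, 3077 with principal transcripts only, 2305 without those in an intron of another transcript and 2047 at a −log10 p of at least 3, and 1639 to 1938 in a single replicate. The share overlapping was 6.10% in replicate 2 and 4.49% in replicate 1 at 50% of the peak, 6.43% and 5.46% for peaks of 30 bp, 6.10% in replicate 2 by the deposited list and 8.28% in replicate 1 at a −log10 p of at least 3. Against coding sequence the difference in percentage points became 1.71 in replicate 2 at 50% overlap, past the threshold, and in replicate 1 it turned to -0.33 with 1 peak per gene and -0.37 for peaks of 30 bp. Against introns it became 1.45 in replicate 2 at 50% overlap, past the threshold. It turned to -5.13 in replicate 2 and -6.82 in replicate 1 with 1 peak per gene, and in replicate 1 to -0.0085 at a −log10 p of at least 3 and -0.056 for peaks of 30 bp. The construction of the rule of 1 peak per gene is given above, and the cause of these changes was not tested. The share close to the cap was 20.3% with the shortest 5' UTR, 18.1% by the 5' end, 32.6% within 100 nt and 14.0% to 17% in a single replicate; close to the start codon it was 16.9% by the 5' end, 41.7% within 100 nt and 24.6% to 24.9% in a single replicate. GAC was in 35.6% of 31 nt windows around the midpoint, and DRACH in 40.5% of these and in 40.5% of peaks at a −log10 p of at least 3. GAC was in 32.2% to 34.2% of peaks in a single replicate and DRACH in 38.2% to 38.9%. GAC at strong peaks, added after seeing the data, was 51.9% and 42.7% in a single replicate. With no depth given, a place without a peak cannot be told from one with too few reads.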
